A study of Arabidopsis thaliana with 6 samples.

Results

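Of the 22746 non-control probe sets on the array, 64 (0.281%) gave a clear signal in every watered sample of Arabidopsis rosettes and read no higher than a floor set by negative controls in every sample taken under water deficit. By role, the 33 with a paired gene divided into 8 genes of growth and the cell wall, 8 other enzymes and binding proteins, 5 signalling and membrane proteins, 3 each of lipid enzymes or lipid transfer proteins, defence proteins and transcription factors, and 3 of no known function. The shares of these roles over the whole array were not counted. A probe set was taken when its signal, after quantile normalization of the 6 arrays, was at or below a floor on all 3 water deficit arrays and at least 4 times that floor on all 3 watered arrays. The floor was 18.5 normalized units. It is the top reading, over the 6 arrays, of 27 probe sets for bacterial (Bacillus) RNAs that serve as negative controls here, so the watered limit was 73.8 units. On its own array a transcript at or below the floor could still read above every control, and 48 of the 64 did so on 1 or 2 water deficit arrays. Because the same 6 signals chose the 64 transcripts, the difference between watered and water deficit arrays is given for them as a description, with no test. The platform annotation paired 33 of them with 1 gene each, all different, and 31 with no gene.

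The samples were vegetative rosettes of 4-week-old Col-0 (Columbia) plants grown in soil. The watered group continued to be watered, and the water deficit group received no water until its relative water content, the water held by the leaf as a share of what it can hold, had dropped to 65%, a moderate stress that wilts leaves. Total RNA of 3 independent replicates of each group was hybridised to Affymetrix ATH1 arrays, 1 array per replicate. RNA came from whole rosettes, so fewer cells of a type and less RNA per cell cannot be told apart in any of the values below.

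A leaf grows as its cell walls yield to the pressure of the water inside. Expansins loosen the wall, xyloglucan endotransglucosylase/hydrolases (XTHs) cut and rejoin the xyloglucan chains that tie cellulose fibrils together, and pectin enzymes change the gel between them. Leaf growth is known to slow early when water runs short. An array reports the amount of a transcript and does not separate slower synthesis from faster decay.

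The deposited signals had not been brought to a common level. Array medians over non-control probe sets were 12.6, 38.2 and 29.6 for watered replicates 1 to 3 and 18.9, 51.6 and 45.6 for water deficit replicates 1 to 3, so replicate 1 was the dimmest array of both groups and the water deficit arrays were the brighter in each replicate. Only 7 of the 46 markers listed for 8 cell types or organs were paired with a probe set, and none was among the 64. The 3 leaf mesophyll markers were high on every array and called lower under water deficit, by log2 fold changes of -0.82 (RCA), -0.97 (LHCB4.1) and -1.37 (PSAN). Rubisco activase (RCA) read 9398, 8388 and 7311 normalized units on the watered arrays and 6182, 4946 and 3438 under water deficit. The trichome regulator TRY (51.9, 41.4 and 28.4 watered) and the mitotic kinase AUR1 of dividing cells (32.3, 41.1 and 41.7 watered) dropped to at or near the floor, from below the level that the rule required. The guard cell gene FAMA and the root gene PYK10 were not called, and the annotation paired no phloem, flower or seed marker with a probe set. The part of these cell types in the values below was not tested.

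The 64 transcripts read between 74.2 and 2059 normalized units on the watered arrays, with a median of 167 over 192 values, and between -8.07 and 18.1, with a median of 7.31, under water deficit. In the deposited values, before any scaling, the highest water deficit value among them was 26.8 and the lowest watered value 29.8. The same arrays chose the 64, so nothing is read from this gap. Negative values arise because the authors subtracted background, and 33 of the 192 deposited water deficit values were at or below 0, against none of the watered ones. A fold could only be bounded, by setting the mean watered log2 value against the floor, and these bounds ran from 4.88 to 89.4 with a median of 8.59. A larger bound reflects a higher watered signal and does not mean a larger change. In the fit of group differences across all probe sets (limma, below), 64 of 64 were called lower, beside 23% of the 13703 probe sets tested that were called lower and 21.8% that were called higher. Nothing is read from that count, since the rule used the same contrast.

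**Figure D1:**
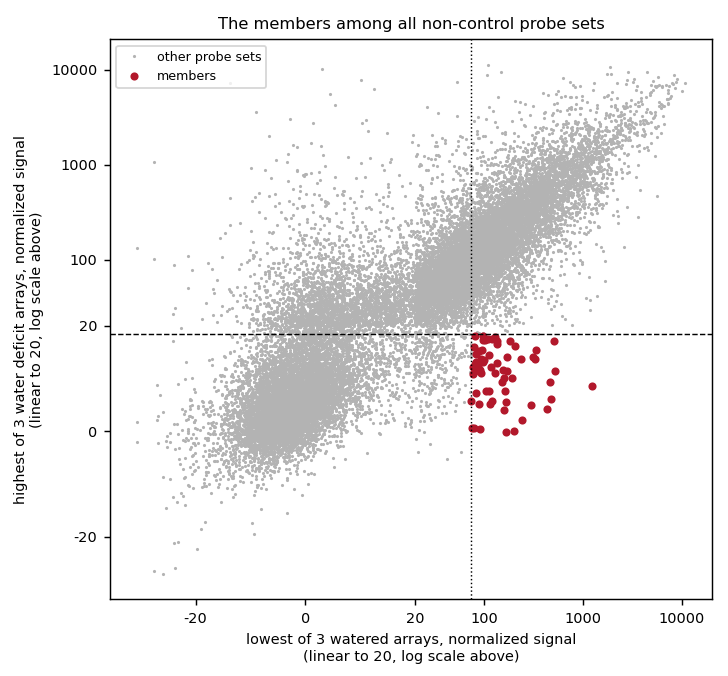
Lowest normalized signal over the 3 watered arrays (x axis) and highest over the 3 water deficit arrays (y axis) for all 22746 non-control probe sets, with both axes linear to 20 and logarithmic above. The 64 transcripts fill the corner right of 4 times the floor (dotted line) and below the floor (dashed line), a sparse edge of the cloud that the rule itself cut out.

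Genes for the cell wall and for growth were 8 of the 33 with a paired gene, as many as the mixed group of other enzymes and binding proteins. Roles were given to these 33 alone, so no share over the array stands beside the 8, and nothing is read from it. Values are given throughout for replicates 1, 2 and 3 in that order, in normalized units. EXPA8 (AT2G40610), an alpha-expansin, read 460.1, 533 and 1002 on the watered arrays and 1.7, 9.34 and 1.95 under water deficit, at least 33.9-fold lower. XTH16 (AT3G23730), for an enzyme that remodels xyloglucan, read 199, 201 and 105 in watered rosettes and 7.61, 2.39 and 6.24 in dehydrated ones, a drop of at least 8.73-fold. EXPA8 was highest on watered replicate 3, the array on which XTH16 was lowest. By the rule, neither gene's groups could overlap.

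The pectin list held a pair of these genes, an enzyme gene and a gene of an inhibitor family. AT3G07010, a pectate lyase family gene whose products cut pectin, gave 169.9, 231 and 347 on the watered arrays against 8.21, 14.2 and 7.92 under water deficit (at least 12.9-fold). AT5G20740, of the family of invertase and pectin methylesterase inhibitors, gave 167, 167 and 202 against -5.71, 5.53 and -5.87 (at least 9.64-fold). Its watered arrays lay close together, and 2 of its water deficit values were below 0.

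CSLA03 (AT1G23480), of the cellulose synthase-like family A that makes mannan chains of the wall, read 321, 248 and 96.8 on the watered arrays and -2.95, 13.2 and 7.3 under water deficit, at least 10.7-fold lower. It had the widest watered range of the paired genes, 3.32-fold from replicate 3 to replicate 1, and replicate 3 was still clear of the water deficit arrays. TBL45 (AT2G30010), of the TRICHOME BIREFRINGENCE-LIKE family that acetylates wall polysaccharides, read 242, 390.0 and 319.7 watered and 2.11, 1.07 and 1.93 under water deficit (at least 16.9-fold). All 3 of its water deficit values were within the range of the Bacillus controls on their own array.

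AT1G22690 is annotated in the study as responsive to gibberellin, a hormone that promotes shoot growth. Its signal was 904, 725 and 429 in watered rosettes and 0.36, 4.21 and 4.34 under water deficit, at least 35.5-fold lower. AT5G28630, a glycine-rich protein gene, was given the growth and cell wall role but is in no gene list. It dropped from 263, 348 and 153 to 9.33, -0.83 and 5.91 (at least 13.1-fold). Both were lowest among watered arrays on replicate 3, and the rule required the groups to be apart.

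**Figure D2:**
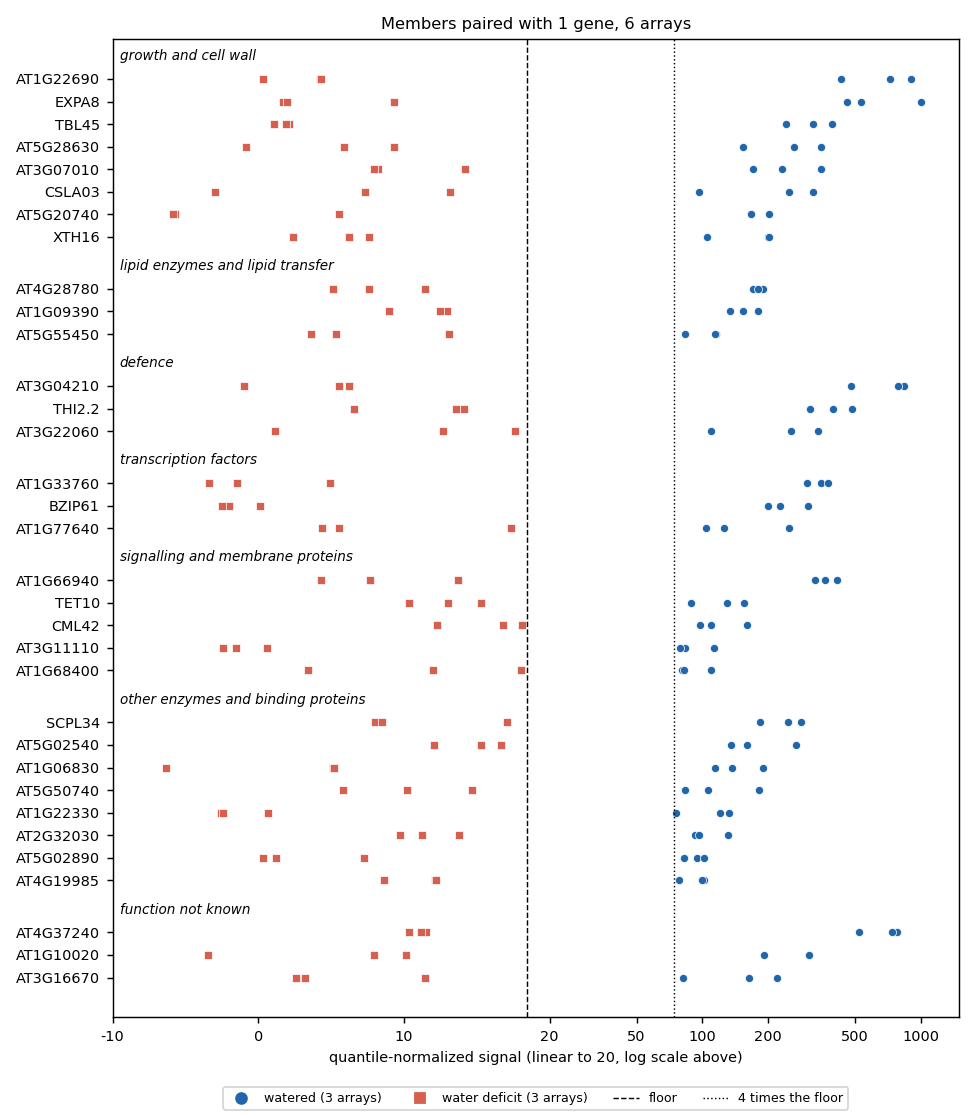
Normalized signal (x axis, linear to 20 and logarithmic above) of the 33 transcripts paired with 1 gene, grouped by role, 1 point per array for the 3 watered (circles) and 3 water deficit (squares) arrays. No point lies between the floor (dashed, 18.5 units) and 4 times the floor (dotted, 73.8 units), as the rule requires, while the watered spread differs from gene to gene.

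Lipid genes numbered 3. AT4G28780 and AT1G09390 encode GDSL-type esterases or lipases, a family with members that act on surface and storage lipids. AT4G28780 read 169.6, 189 and 179 on the watered arrays and 5.12, 7.61 and 11.5 under water deficit (at least 9.71-fold), and AT1G09390 read 154, 179 and 134 watered and 9.0, 12.9 and 12.5 under water deficit (at least 8.38-fold). The watered arrays of AT4G28780 differed by only 1.12-fold. AT5G55450, of the lipid transfer protein family, which carries lipids outside the cell, read 116, 83.7 and 114 watered and 3.63, 5.31 and 13.1 under water deficit (at least 5.6-fold), and its watered values lay not far above the required level.

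Defence genes were likewise 3 in number. AT3G04210, with the TIR and nucleotide-binding domains of intracellular immune receptors, read 837, 783 and 476 on the watered arrays and 5.52, 6.19 and -0.96 under water deficit, at least 36.8-fold lower. THI2.2 (AT5G36910) encodes a thionin, a small peptide toxic to microbes, and read 312, 485 and 398 watered and 13.6, 14.1 and 6.54 under water deficit (at least 21.2-fold). Both were far above the floor on every watered array and below it on every water deficit array. AT3G22060, annotated as related to receptor kinases, was given the defence role but is not in the defence list. It read 337, 256 and 109 watered and 17.6, 12.7 and 1.13 under water deficit (at least 11.4-fold). Its watered replicate 3 was far below its other watered arrays and still clear of the water deficit group.

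Transcription factors also numbered 3. AT1G33760 and AT1G77640 belong to the DREB branch of the AP2/ERF family, other members of which are known for switching on genes in drought and cold. AT1G33760 read 351, 377 and 299.7 on the watered arrays and 4.94, -3.39 and -1.45 under water deficit (at least 18.5-fold). AT1G77640 read 103, 249 and 126 watered and 4.38, 17.4 and 5.54 under water deficit (at least 8.01-fold). AT1G33760 was within the range of the controls on all 3 water deficit arrays, whereas AT1G77640 was above the highest control of its array (5.75 units) on water deficit replicate 2. BZIP61 (AT3G58120), a basic leucine zipper factor, read 228, 303 and 199 watered and 0.12, -1.99 and -2.46 under water deficit (at least 13-fold), with every water deficit value near 0.

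Signalling and membrane proteins accounted for 5. AT1G66940, related to protein kinases, read 364, 413 and 326 in watered rosettes and 4.28, 7.7 and 13.7 under water deficit (at least 19.8-fold). AT1G68400, a leucine-rich repeat receptor-like kinase, read 80.8, 109.8 and 82.5 watered and 3.42, 12 and 18 under water deficit (at least 4.88-fold). The first was far above the watered limit of the rule, and the second was near both limits, on watered replicate 1 and water deficit replicate 3. CML42 (AT4G20780), a calmodulin-like calcium sensor, read 109, 159.7 and 98 watered and 18.1, 12.3 and 16.8 under water deficit (at least 6.48-fold). TET10 (AT1G63260), a tetraspanin, one of a family of small proteins that span membranes, read 155, 129.5 and 88.6 watered and 10.3, 13 and 15.3 under water deficit (at least 6.57-fold). For both CML42 and TET10 the values on water deficit replicates 2 and 3 were above the highest control of those arrays (5.75 and 6.10 units). AT3G11110, a RING finger protein gene, had watered values of 113, 83.4 and 78.9 (at least 4.91-fold), and its water deficit values were -1.51, 0.59 and -2.44.

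Among 8 other enzymes and binding proteins, SCPL34 (AT5G23210), of the serine carboxypeptidase-like family, read 282, 246 and 184 on the watered arrays and 8.04, 8.48 and 17 under water deficit (at least 12.7-fold). AT1G06830, a glutaredoxin family gene, whose products use glutathione to reduce disulfide bonds, read 114, 189 and 137 watered and 5.14, -6.31 and 5.17 under water deficit (at least 7.76-fold). SCPL34 was lowest among its watered arrays on replicate 3, and AT1G06830 on replicate 1. The remaining 6 were AT5G02540, a short-chain dehydrogenase/reductase gene (at least 9.73-fold lower), the metal-binding protein gene AT5G50740 (at least 6.34-fold), the RNA-binding protein gene AT1G22330 (at least 5.76-fold), the GNAT-type acetyltransferase genes AT2G32030 (at least 5.71-fold) and AT4G19985 (at least 5.01-fold), and the transferase gene AT5G02890 (at least 5.02-fold).

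A further 3 genes had no known function. AT4G37240 read 774, 737 and 520.1 on the watered arrays and 11.5, 10.3 and 11.2 under water deficit (at least 36.1-fold), AT1G10020 read 307, 306 and 191 watered and 10.2, -3.42 and 7.95 under water deficit (at least 14.2-fold), and AT3G16670 had a bound of 7.75. The water deficit values of AT4G37240 were almost level across replicates. The 31 probe sets that the annotation paired with no gene looked much like the rest, at 74.2 to 2059 units watered and -8.07 to 17.9 under water deficit. Their bounds had a median of 8.22, against 9.71 for the 33 with a gene. One of them, 265066_at, picked after its values were seen, read 1774, 2059 and 1229.6 on the watered arrays and 5.46, 8.67 and 2.89 under water deficit (at least 89.4-fold).

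How the transcripts compared with the negative controls under water deficit depended on the array. The highest Bacillus control read 18.5, 9.45 and 8.28 units on watered replicates 1 to 3 and 18.2, 5.75 and 6.10 on water deficit replicates 1 to 3, so the dim replicate 1 arrays set the floor. Against the highest control of the same array, all 64 transcripts were at or below it on water deficit replicate 1, 21 on replicate 2 and 30 on replicate 3. Only 16 were at or below it on all 3, among them AT1G22690, TBL45, AT5G28630, AT5G20740, AT1G33760, BZIP61, AT1G06830, AT1G22330 and AT3G11110. The other 48 exceeded the highest control of their own array on 1 or 2 of the 3 water deficit arrays. The median over all 64 was 5.65, 9.09 and 6.52 units on water deficit replicates 1 to 3, against a median of 0.87 for the controls on those arrays.

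**Figure D3:**
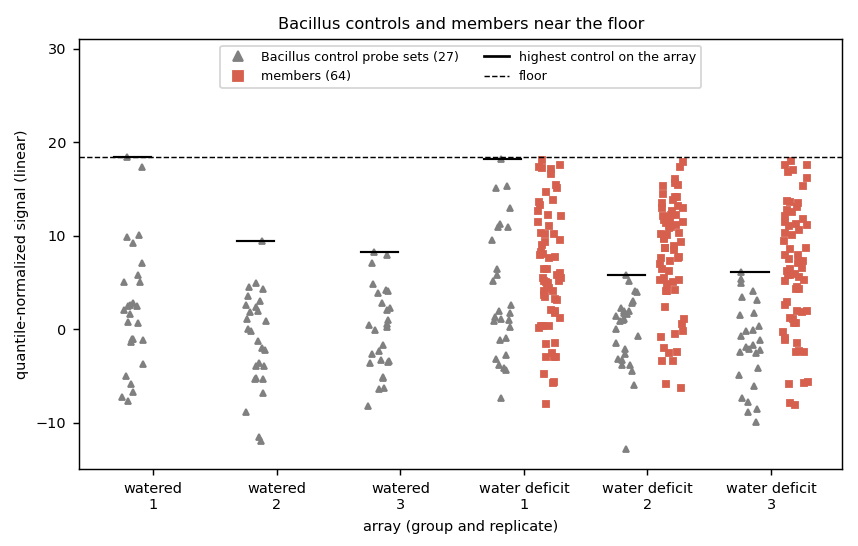
Normalized signal (linear y axis) of the 27 Bacillus control probe sets on each of the 6 arrays (triangles) and of the 64 transcripts on the 3 water deficit arrays (squares), with the highest control of each array as a bar and the floor as a dashed line. On water deficit replicates 2 and 3 many transcripts lie between that array's highest control (5.75 and 6.10 units) and the floor, and on replicate 1 none do.

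The limits of the rule cut through a continuum. On the watered side the nearest probe sets inside were 247069_at, AT1G22330 and 246993_at, whose lowest watered signals were 4.02, 4.1 and 4.21 times the floor, and those just outside were AT1G11850, AT1G53440 and AT3G56480 at 3.995, 3.99 and 3.98 times. On the water deficit side CML42, AT1G68400 and 258956_at were just inside, with highest signals of 0.98, 0.98 and 0.97 times the floor, and 265342_at, 261080_at and AT1G11670 just outside, at no more than 1.01 times. 265342_at missed by a single array, with 369, 352 and 441 units watered and 18.5, 5.52 and 0.55 under water deficit.

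Few probe sets moved between a clear signal and the floor, in either direction. Of 7112 probe sets at least 4 times the floor on all watered arrays, 64 (0.9%) had fallen to the floor throughout the water deficit group, and 89 of 7287 (1.22%) made the opposite move. Of the 8505 probe sets that never exceeded the floor under water deficit, 6922 did not exceed it in watered rosettes either. A further 373 were above it on all watered arrays, so most that fell to the floor had started from weaker signals than the rule required.

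The watered replicates were uneven for these transcripts. Replicate 3 held the lowest watered signal for 41 of 64 (64.1%), replicate 1 for 19 and replicate 2 for 4, while replicate 3 was lowest for 37.7% of the other probe sets at 4 times the floor on all watered arrays. By call, replicate 3 was lowest for 49.7% of the others called lower under water deficit, 35.0% of those not called and 23.2% of those called higher. Their medians on watered replicates 1 to 3 were 177, 189 and 132 units, and the signal on replicate 3 was a median of 0.77 times the mean of replicates 1 and 2, against 0.99 for the other probe sets. The ratio was 0.92 over the 2259 others called lower under water deficit, 1.0 over the 3580 not called and 1.1 over the 1209 called higher. These shares and ratios are descriptions, since the watered arrays also enter the calls.

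The highest watered signal was a median of 1.67 times the lowest for the 64, and 1.35 times for the others. 20 of the 64 (31.2%) varied by over 2-fold among watered plants, beside 9.45% of the others. The others were not matched to the 64 for signal level or for call. XTH16, CSLA03, AT3G22060 and AT1G22690 were among those low on replicate 3, whereas EXPA8, AT3G07010 and AT3G16670 were highest on it. The root-expressed beta-glucosidase gene PYK10, the only root marker paired with a probe set, was also uneven, at 251, 409.9 and 858 units watered and 459, 543 and 1214 under water deficit, highest on replicate 3 of both groups. The part of other tissue in the replicate 3 values was not tested.

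**Figure D4:**
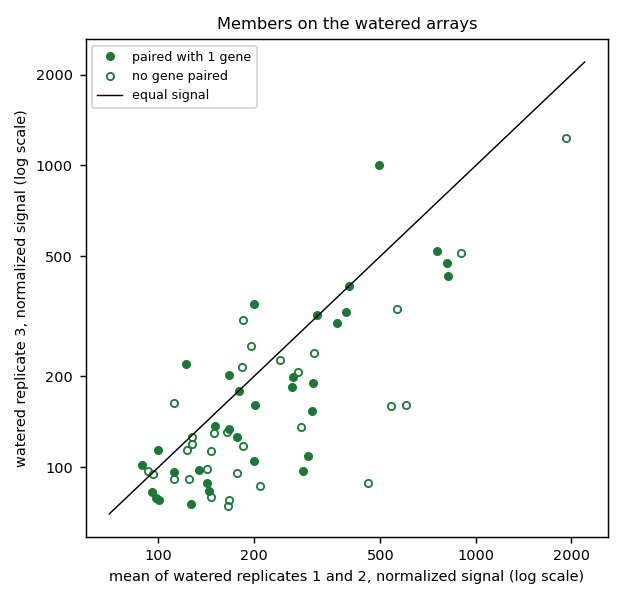
Normalized signal of the 64 transcripts on watered replicate 3 (y axis) against the mean of watered replicates 1 and 2 (x axis), both on log scales, for transcripts paired with 1 gene (filled) and with none (open). 52 of the 64 points lie below the line of equal signal, and EXPA8 is the filled point farthest above it, at 1002 units on replicate 3.

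Genes that share a list with these, and that the rule did not select, were measured on the same arrays and are called relatives. Some share a list but not a family. These are the WRKY factors beside AP2/ERF genes, PDF1A and PDF1B in the defence list, and AT4G13840 and WSD1 beside GDSL genes. They are counted with the rest. In the 11 gene lists that hold one of the 64 and another measured gene, 96 other genes were tested, and 36 (37.5%) were called lower and 18 higher (limma, 3 arrays against 3, p-values adjusted by Benjamini-Hochberg over the 13703 probe sets in the fit). The background was 23% lower and 21.8% higher. Lists holding none of the 64 varied too. In those with the most tested genes, lower calls were 8 of 27 for light harvesting and photosystems, 2 of 11 for cytochromes P450 and 6 of 10 for tubulins and microtubule proteins. The median log2 fold change of the 96 was -0.34, beside 0.04 over all probe sets tested. These calls depended on bringing the arrays to a common level. With the deposited values unscaled, the median of all probe sets rose to 0.51 and that of the relatives to 0.19, and 6 relatives were lower (XTH18, EXLA2, ATPMEPCRB, PDF1.2, scpl35 and scpl50) and 6 higher (EXLB1, WSD1, WRKY6, BZIP17, SCPL49 and scpl33). With scaling to the added hybridisation controls the medians were 0.48 and 0.15, and 12 were lower and 9 higher. The median of the relatives stayed below that of all probe sets under each scaling. Scaling of this kind multiplies a whole array by a common factor, so it moves signals above the floor alike. It could therefore hardly change the gap between these medians. None of the 37 relatives named below as called lower or higher changed sign under any alternative in which it was tested. Relatives named as not called were left out of that check. Values beside a relative's name are its log2 fold change, water deficit over watered, ± standard error.

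Among the expansins and XTHs, 7 of 14 tested relatives of EXPA8 and XTH16 were lower and 2 higher. XTH18 came closest to the rule, at 742, 821 and 172 units watered and 19, -6.39 and -0.24 under water deficit, and missed it on 1 array by less than 1 unit. Its log2 fold change was -4.66 ± 0.54, adjusted p = 0.000374, with 2 water deficit arrays at the floor, so the change was at least 25.3-fold. EXLA2, expansin-like, followed at -2.69 ± 0.48, adjusted p = 0.00282 and XTH19 at -2.17 ± 0.44, adjusted p = 0.00502, each with 1 water deficit array at the floor, and the call for XTH19 was lost with no filter on low signals (0.0636). In the opposite direction, EXLB1, another expansin-like gene, rose from 78.2, 88.2 and 107 to 1939, 2059 and 2923 units (4.65 ± 0.22, adjusted p = 9.22e-06). EXPA9 was also called higher (0.81 ± 0.24, adjusted p = 0.0282), a call that held only without watered replicate 3 (0.00767) when arrays were left out and reached adjusted p = 0.0966 without another. EXPA15, EXPA16, EXPA4, EXGT-A3 and XTH33 were not called, and XTH33 reached the floor in every dehydrated sample from 47.6, 57.7 and 19.7 (-1.04 ± 0.37, adjusted p = 0.0542, or 0.0381 with the replicate number as a block).

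Of 3 tested pectin relatives, 2 were lower. ATPMEPCRB, a pectin methylesterase gene, went from 341, 328 and 88.8 to 32, 19.4 and 11.1 units (-3.25 ± 0.51, adjusted p = 0.00163), and its watered replicate 3 was far below the others. PME61 had a log2 fold change of -1.47 ± 0.23 (adjusted p = 0.00174). Among genes for cellulose and other wall polysaccharides, 9 of 26 tested relatives of CSLA03 and TBL45 were lower and 4 higher. CSLC04, for the enzyme that makes the xyloglucan backbone, read 728, 840.2 and 681 watered and 145, 161 and 135 under water deficit (-2.35 ± 0.18, adjusted p = 5.3e-05), a steady drop to a level still far above the floor. AT2G31110 (-2.04 ± 0.22, adjusted p = 0.000272) and TBL25 (-1.28 ± 0.22, adjusted p = 0.00234), both of the TBL family of TBL45, were lower too. The highest were CSLD2 (1.37 ± 0.24, adjusted p = 0.00284), TBL38 (1.24 ± 0.23, adjusted p = 0.0034) and the xylan gene IRX15-L (1.21 ± 0.32, adjusted p = 0.0159), the last lost without water deficit replicate 2 (0.0702) or 3 (0.0582). The TBL family thus held lower and higher members beside TBL45.

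**Figure D5:**
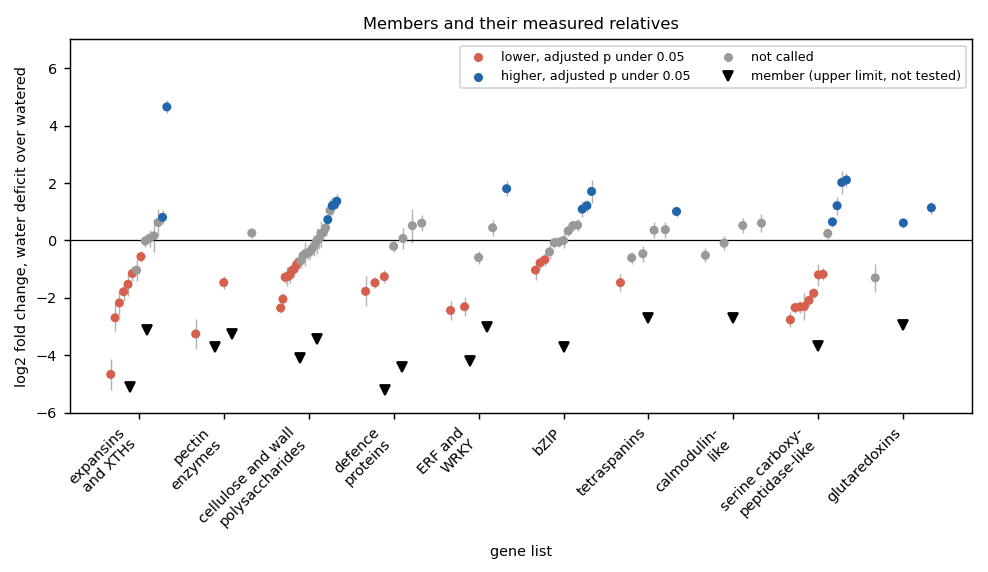
Log2 fold change, water deficit over watered, with standard errors, of the tested relatives in 10 gene lists (circles, coloured by call at adjusted p under 0.05) and the upper limit for each of the transcripts chosen by the rule in those lists (triangles, not tested). Each list holds relatives near 0 or above it, and EXLB1 (4.65) and XTH18 (-4.66) are the extremes of the expansin and XTH list.

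Some immune and regulatory relatives paired with a probe set were not tested. In the defence list 7 of 13 paired relatives were tested, and 3 of these were lower. PDF1.2, a plant defensin often used to follow jasmonate responses, dropped to the floor under water deficit from an uneven 119, 24.2 and 86.6 watered (-1.77 ± 0.52, adjusted p = 0.0262, held only without watered replicate 2 at 0.000801 and up to 0.0864 without another array). The other lower genes, PDF1B (-1.47 ± 0.19, adjusted p = 0.000545) and PDF1A (-1.26 ± 0.24, adjusted p = 0.00378), entered the list through their symbols and encode peptide deformylases rather than defensins. In the list of ERF and WRKY factors the 5 tested relatives were all WRKY factors, so no AP2/ERF relative of AT1G33760 and AT1G77640 was tested. WRKY53 (-2.44 ± 0.33, adjusted p = 0.000838) and WRKY22 (-2.31 ± 0.33, adjusted p = 0.000952), linked to senescence and to immune signalling, were lower. WRKY6 was higher, from 29.1, 17.6 and 4.58 to 68.4, 101 and 61 units (1.80 ± 0.27, adjusted p = 0.00129).

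Of 13 tested bZIP relatives of BZIP61, 3 were lower and 3 higher. Like BZIP61, BZIP34 dropped to the floor in every dehydrated sample, from 21.2, 56.5 and 44.8 watered (-1.03 ± 0.34, adjusted p = 0.0396). That call held without watered replicate 1 (0.00151) and was lost without any other array (up to 0.133). AT2G40620 (-0.78 ± 0.22, adjusted p = 0.0209) was lost without watered replicate 1 (0.0545), watered replicate 2 (0.0708) and water deficit replicate 2 (0.0558), and bZIP52 (-0.67 ± 0.24, adjusted p = 0.0495) without watered replicate 2 (0.16), watered replicate 3 (0.108), water deficit replicate 2 (0.144) and water deficit replicate 3 (0.166) and with the replicate number as a block (0.0649). On the other side BZIP17, a factor of the unfolded protein response, was higher (1.71 ± 0.41, adjusted p = 0.0112, 0.0514 without water deficit replicate 3), as were bZIP44 (1.21 ± 0.21, adjusted p = 0.00282) and BZIP24 (1.09 ± 0.28, adjusted p = 0.0141), the last lost with no filter on low signals (0.0852) and on the 4 brighter arrays alone (0.0806). None of the 4 tested calmodulin-like relatives of CML42 was called (CML38, CML30, CML37 and CML23, adjusted p between 0.123 and 0.784). Among 6 tested tetraspanin relatives, TET7 was lower (-1.47 ± 0.29, adjusted p = 0.00469) and TET6 higher (1.01 ± 0.19, adjusted p = 0.00372), a call lost with the floor at the 25th percentile of all signals (0.0787).

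Of 13 tested serine carboxypeptidase-like relatives of SCPL34, 8 were lower, 4 higher and 1 not called. The 3 with the largest drops were scpl50 (-2.76 ± 0.26, adjusted p = 0.000134), scpl25 (-2.34 ± 0.19, adjusted p = 8.15e-05) and SCPL27 (-2.32 ± 0.21, adjusted p = 0.000113), and scpl50 and SCPL27 each reached the floor on 2 water deficit arrays. scpl33 did the reverse of SCPL34, at 5.37, 1.24 and 0.38 units watered, all at or below the floor, and 60.3, 114 and 72.8 under water deficit (2.11 ± 0.25, adjusted p = 0.000411, at least 4.3-fold). SCPL49 (2.02 ± 0.39, adjusted p = 0.00431, 0.0561 with no filter on low signals) and scpl20 (1.21 ± 0.32, adjusted p = 0.0158) were also higher, the latter lost without watered replicate 1 (0.0503), watered replicate 2 (0.069) and water deficit replicate 3 (0.0694). Among glutaredoxins, no relative of AT1G06830 was lower at the threshold. GRXC1 was higher (1.14 ± 0.20, adjusted p = 0.00281) and so was GRXC2 (0.61 ± 0.18, adjusted p = 0.0254), lost without watered replicate 1 (0.0541), watered replicate 2 (0.0857), water deficit replicate 2 (0.071) and water deficit replicate 3 (0.0763) and with median scaling (0.138). GRX480 was not called (-1.30 ± 0.49, adjusted p = 0.0612) but was lower with the replicate number as a block (0.00678). For the GDSL genes the cuticle list held 2 relatives in opposite directions, the acyltransferase gene AT4G13840 (-0.81 ± 0.19, adjusted p = 0.0109) and the wax ester synthase gene WSD1 (2.28 ± 0.55, adjusted p = 0.0113, 0.0531 without watered replicate 2 and 0.108 with no filter on low signals).

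Few of the genes next to the 33 paired genes on the chromosome could be followed. No 2 of the 33 were adjacent in the annotation, and of 66 direct neighbours 13 were tested. Of these, 6 (46.2%) were called lower, beside the background of 23%, 1 higher and 6 not called. The neighbours below were picked out after their values were seen. Only AT1G33770, next to AT1G33760, itself dropped to the floor in all dehydrated samples (log2 fold change -1.76 ± 0.24, adjusted p = 0.000789). Both neighbours of EXPA8 were lower by under 1 log2 unit, AT2G40600 (-0.88 ± 0.17, adjusted p = 0.00406) and AT2G40620, the bZIP gene described above. AT5G02550, next to AT5G02540, was higher (2.79 ± 0.35, adjusted p = 0.000555). With unscaled values or scaling to the added controls, 0 of the 13 were called lower.

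Which transcripts met the rule depended on how the arrays were brought together. Median scaling also gave 64, of which 51 were the same. Unscaled values gave 21, of which 17 were among the 64, and scaling to the added controls gave 26, of which 21 were. Under all 3 of these scalings 15 of the 64 were selected, and 9 of them have a gene: AT1G22690, TBL45, AT5G28630, AT5G20740, XTH16, AT3G04210, AT1G33760, BZIP61 and AT1G10020. With the floor at the 25th percentile of all signals, 35 were selected and 8 were shared. BZIP61, TBL45, AT1G22690, 254770_at and 263549_at met the rule under that floor and all 3 scalings as well. EXPA8 and THI2.2 did not meet it under every scaling.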

How the data were processed

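Total RNA of 3 watered and 3 water deficit replicates was measured on Affymetrix ATH1 arrays. The authors generated probe set signals with the Affymetrix operating software and compared pooled replicates in Rosetta Resolver, whose error model was not rerun. The deposited table gives a linear intensity per probe set, from which the authors had subtracted background without scaling the arrays to each other, with 13.2% to 17.8% of an array's values at or below 0. With 3 arrays a group, the number of arrays limits the precision. No genome build is named for the probe sets, so no positions are printed.

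Quantile normalization of the 6 columns used limma 3.58.1 in R 4.3.3, and signals were raised to the floor of 18.5 units (4.21 on the log2 scale) and converted to log2. Probe sets above the floor on at least 3 arrays, 13703 in all, were fitted with group as the only term (lmFit and eBayes, two-sided, Benjamini-Hochberg adjustment, called at an adjusted p under 0.05). Fold bounds set the mean watered log2 value against the floor. Tables were made in Python 3.11.15 with pandas 2.3.3, and the fit was tested on simulated data. Gene names came from the platform annotation, which paired 13513 of 22746 non-control probe sets with 1 gene, 503 with several and 8730 with none, updated through a RefSeq gene table that also gave gene order.

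The transcripts and gene lists were chosen with earlier results of these data known, and the bZIP, calmodulin, tetraspanin, carboxypeptidase and glutaredoxin lists were added once the transcripts were known. Described array by array were the 12 paired genes with the highest mean watered log2 value, up to 3 per gene list and the gene with the widest watered range, together with 2 more that completed a role group (AT3G22060 and AT3G11110). Relatives named are the 3 with the largest called changes in each direction of a list, and those not called that reached the floor or a call with the replicate block, with examples. Deviations from the group means correlated across probe sets between equally numbered arrays (0.291, 0.230 and 0.393, against -0.381 to 0.0285 for arrays of unlike number), so the numbers pair the arrays. The main fit, and the standard errors and adjusted p-values taken from it, left the pairing out, as the study pooled replicates. A fit with a replicate block was run as an alternative. Alternatives were other scalings, floors, levels and filters, a replicate block, leaving out each array, and, chosen after seeing the data, each array's own controls as its floor and the 4 brighter arrays alone.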

Additional observations from a re-analysis of the deposited data

How the results depend on the processing

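The count of 64 transcripts that met the rule was 21 on unscaled values, 26 with scaling to the added hybridisation controls, 35 with the floor at the 25th percentile, 25 with each array's own highest control as its floor, 164 when a watered signal of 2 times the floor was enough and 25 when 8 times was required. It was 64 with median scaling, 69 with the floor doubled and 90 on the 4 brighter arrays alone, where 51, 25 and 26 were shared. Leaving out 1 array gave 70 to 95, the most without watered replicate 3, and 63 or 64 of the 64 were selected each time. The rule requires every array to pass, so leaving 1 out drops a condition. Any of the 64 could be lost only through a shift in the floor or the normalization. The 3154 probe sets called lower, beside 2992 higher, became 370 beside 1030 on unscaled values and 525 beside 1344 with the added controls, where the median of all probe sets moved to 0.51 and 0.48 on the log2 scale, and 2398 to 3106 without 1 array. The 36 relatives called lower became 6, 12 and, with no filter on low signals and so more probe sets adjusted for, 22, and 26 to 34 without 1 array. With the replicate number as a block, which pairs the arrays, 3493 probe sets and 39 relatives were lower. Among the relatives it added calls for XTH33, GRX480, WRKY20 and TET8 (lower) and TBL37, bZIP19 and AT2G21230 (higher), and ended that for bZIP52. Among the relatives named, dropping the filter ended the calls for EXPA9, XTH19, IRX15-L, WSD1, PDF1.2, BZIP17, BZIP24, BZIP34, AT2G40620, bZIP52, SCPL49 and scpl20, the 25th-percentile floor those for EXPA9, BZIP17, AT2G40620, bZIP52, TET6 and GRXC2, and the 4 brighter arrays those for EXPA9, BZIP24, AT2G40620, scpl20 and GRXC2. The median log2 difference of the 33 paired genes, -3.28, was -4.60 with the 25th-percentile floor and -4.14 on the 4 brighter arrays, where the floor itself was lower, and -3.39 to -3.24 without 1 array. Of 363 differences of single paired genes under these alternatives, 282 moved by less than the spread of the watered arrays and 81 by more. Of these differences 0 changed sign, for which the gap set by the rule left little room.

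Signal over background limits these values. A transcript at the floor may still be present below what the array separates from the controls, and its order among others at the floor carries no information. The floor was set by the dim replicate 1 arrays. Of the 64 probe sets, 31 were paired with no gene in the platform annotation and are left unnamed here, with no other source used to name them, and the families measured beside them are those parts that the annotation paired with a probe set. Replicates in groups of 3 are too few for a test of single outlying arrays.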
